A study of Mus musculus with 6 samples.

Results

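The genes of antigen presentation by MHC class II molecules were followed in RNA-seq libraries labelled as bone endothelial cells (BECs) of female and male mice. The 10 genes were taken by symbol, with no rule on their values but with earlier results of these data known. All 10 were found among the 37991 rows of the deposited table of read counts: H2-Aa, H2-Ab1, H2-Eb1, Cd74, Ciita, H2-DMa, H2-DMb1, H2-DMb2, H2-Oa and H2-Ob. The 6 libraries came from c57/Bl6 mice aged 12 weeks (tibia in the labels, tibia and femur in the methods for isolating these cells), 3 from females and 3 from males, and the labels name no treatment, transgene or altered allele for either sex. Cells were purified by their expression of endomucin, a sialomucin on the surface of bone capillaries, and the methods state that the samples with the best RNA quality of each set were taken forward. Total counts lay between 47678806 and 58325745 per library. Levels are given as CPM, the count scaled to the TMM-normalized size of the library, and a floor of 3 counts was 0.0477 to 0.0639 CPM.

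Class II molecules display peptides from the endosomal pathway to CD4 T cells. Each is a pair of an alpha and a beta chain, which is held by the invariant chain Cd74 until it reaches the endosome, where H2-DM exchanges the remaining fragment of Cd74 for peptide and H2-O restrains H2-DM. Much of the set is switched on by Ciita, a coactivator that docks on factors bound to the X and Y boxes of the promoters. B cells, dendritic cells and many macrophages express class II molecules constitutively, and endothelial cells can do so after interferon gamma.

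The promoters of the class II genes are shown because their shared boxes are what the common regulator acts on. Of the 10 genes, 7 had a RefSeq promoter window (GRCm38.p6), covering 250 bases before to 50 bases after a start site. Both strands were searched for the letters GNAAC, a core of the X box, followed after 10 to 30 bases by TGATTGG, a core of the Y box, with N for any base. These letters were chosen after the promoters of the class II genes had been read. The pair was found in 5 of the 7 genes, against 0.666% of the 27025 genes with a window. TGATTGG alone was found in 6 of the 7, against 9.0% of all genes, while GNAAC alone is common (86.8%). The stretches below are written 5′ to 3′ on the strand of the gene, with the matched letters in capitals, and all lie upstream of the start site.
H2-Aa: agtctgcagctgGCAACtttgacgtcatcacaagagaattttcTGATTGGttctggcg
H2-Eb1: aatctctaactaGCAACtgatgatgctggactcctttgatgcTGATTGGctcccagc
H2-DMb1: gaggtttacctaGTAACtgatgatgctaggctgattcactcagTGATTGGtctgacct
H2-DMb2: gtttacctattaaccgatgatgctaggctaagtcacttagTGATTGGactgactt
H2-Oa: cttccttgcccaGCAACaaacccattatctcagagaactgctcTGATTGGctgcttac
H2-Ob: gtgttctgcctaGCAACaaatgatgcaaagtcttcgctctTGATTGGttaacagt

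These stretches lie at chr17:34287859-34287916 on the minus strand for H2-Aa and, on the plus strand, at chr17:34305764-34305820 for H2-Eb1, chr17:34153085-34153142 for H2-DMb1, chr17:34145117-34145171 for H2-DMb2, chr17:34092291-34092348 for H2-Oa and chr17:34238806-34238860 for H2-Ob. The first bases of the cores were 31 bases apart in H2-Aa, H2-DMb1 and H2-Oa, 30 in H2-Eb1 and 28 in H2-Ob. In H2-DMb2 only the Y core matched these letters, and in H2-DMa neither the pair nor the Y core was in its windows. H2-Ab1, Ciita and Cd74 were not matched to a window.

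Transcripts of the class II genes were abundant in every library. Together the 10 genes held 1.05%, 1.17% and 0.762% of the counts in female replicates 1, 2 and 3, and 0.857%, 0.745% and 0.816% in male replicates 1, 2 and 3. The 18 endothelial marker genes, from the VE-cadherin gene Cdh5 to Kdr and Tek, held 0.0364% to 0.0568% in females and 0.0232% to 0.0324% in males, and none of them was at 0 in all libraries. Emcn, the endomucin gene used for the purification, had 8.68, 5.35 and 10.5 CPM in females and 4.21, 3.09 and 6.73 CPM in males. The 12 neutrophil markers held 2.05% to 4.41% and the 8 erythroid markers 1.31% to 2.84% of the counts over the 6 libraries. The class II genes thus took more of the counts than the markers of the labelled cell type in each library, and the markers of neutrophils and erythroid cells took more than both. Markers of cells that present antigen were also present: the 12 B cell markers held 0.359% to 0.458% in females and 0.365% to 0.446% in males, and the 12 monocyte and macrophage markers 0.402% to 0.432% and 0.282% to 0.345%. In bulk RNA, fewer cells of a type and less RNA per cell cannot be told apart, and the part of each cell type in the class II counts was not tested.

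**Figure D1:**
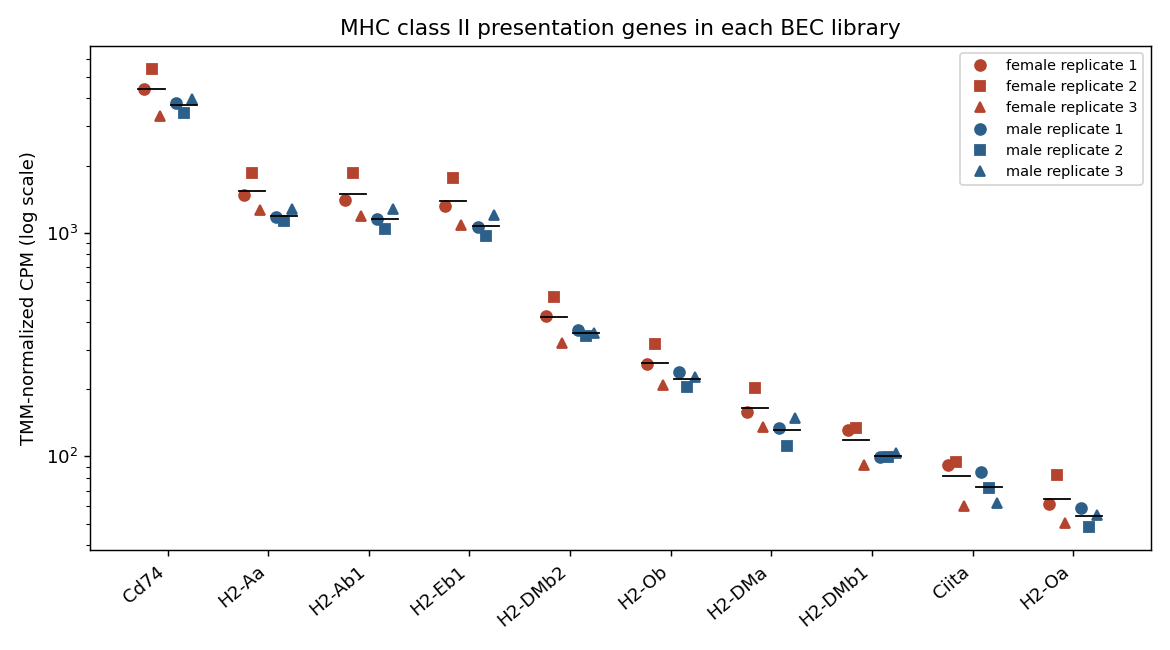
TMM-normalized CPM (log scale) of each class II gene in the 3 female and 3 male libraries, with black lines at the mean of each sex. Female replicate 2 is the highest library for all 10 genes, and female replicate 3 lies below at least 1 male library for all 10.

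H2-Aa and H2-Ab1 encode the alpha and beta chains of the I-A molecule. H2-Aa (ENSMUSG00000036594, chromosome 17 of GRCm39, 34493404 to 34506798) had 1481, 1860 and 1266 CPM in female replicates 1, 2 and 3, and 1179, 1125 and 1272 CPM in male replicates 1, 2 and 3. Female replicates 1 and 2 were above all males, but female replicate 3 was just below the highest male, so the sexes overlapped. H2-Ab1 (ENSMUSG00000073421, 34476663 to 34488393) had 1407, 1859 and 1191 CPM in females and 1150, 1038 and 1273 CPM in males, with the same place for female replicate 3 inside the male range. The log2 fold change of males over females was -0.37 for H2-Aa (standard error 0.170, 95% interval -0.74 to 0.01, adjusted p = 0.518 from edgeR). For H2-Ab1 it was -0.37 (standard error 0.185, 95% interval -0.78 to 0.05, adjusted p = 0.562 from edgeR). Both intervals included 0.

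H2-Eb1 (ENSMUSG00000060586, 34504236 to 34535648) encodes the beta chain of the I-E molecule. It had 1323, 1758 and 1087 CPM in females and 1059, 967 and 1197 CPM in males, so its libraries also overlapped. Its log2 fold change was -0.37 (standard error 0.191, 95% interval -0.79 to 0.05, adjusted p = 0.569 from edgeR). Mice of the C57BL/6 background carry a defective gene for the matching alpha chain, H2-Ea. H2-Ea had 3 and 5 counts in female replicates 1 and 2 and 0 counts in the other 4 libraries, which allows a level of up to 0.0639 CPM, and it did not enter the test. The transcript of the beta chain was thus present at 967 CPM or more in each library beside an alpha chain transcript at or close to the floor. The related beta chain gene H2-Eb2 had a mean of 46.0 ± 6.86 CPM over the 3 females and 39.1 ± 3.42 CPM over the 3 males (SD). In the GENCODE M39 annotation H2-Aa and H2-Eb1 overlap on opposite strands, and whether reads were counted by strand is not given in the sources used here.

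Cd74 (ENSMUSG00000024610, chromosome 18, 60936899 to 60945731), the invariant chain, had the highest CPM of the 10 genes and ranked 20 of the 19480 genes tested by mean CPM. It had 4416, 5414 and 3323 CPM in females and 3808, 3434 and 3974 CPM in males. The lowest and the highest of the 6 values were both female. Its log2 fold change was -0.23 (standard error 0.199, 95% interval -0.67 to 0.21, adjusted p = 0.754 from edgeR).

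Ciita (ENSMUSG00000022504, chromosome 16, 10297923 to 10347694), the coactivator of the set, had 92.0, 94.3 and 59.8 CPM in females and 85.4, 72.5 and 61.6 CPM in males. Replicate 3 was the lowest of each sex, and the sexes overlapped over most of their range. Its log2 fold change was -0.17 (standard error 0.184, 95% interval -0.57 to 0.24, adjusted p = 0.814 from edgeR), the nearest to 0 of the 10 genes.

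The H2-DM molecule loads peptide, with H2-DMa as alpha chain and H2-DMb1 or H2-DMb2 as beta chain. H2-DMa (ENSMUSG00000037649, 34338515 to 34358958) had 158, 203 and 135 CPM in females and 134, 111 and 148 CPM in males. H2-DMb1 (ENSMUSG00000079547, 34372046 to 34379204) had 131, 134 and 91.1 CPM in females and 99.4, 99.1 and 103 CPM in males. H2-DMb2 (ENSMUSG00000037548, 34362197 to 34370529) had 423, 518 and 322 CPM in females and 368, 346 and 357 CPM in males. For both beta chain genes the males lay close together, with SDs of 2.26 and 10.8 CPM, and female replicate 3 was below all of them. The log2 fold changes were -0.34, -0.24 and -0.24, with adjusted p of 0.552, 0.640 and 0.694 from edgeR. H2-DMb1 and H2-DMb2 are similar copies: 32.2% of the 40-base stretches of the H2-DMb1 transcript also occur in that of H2-DMb2, so the authors' counting could have divided reads between them and their separate levels are uncertain.

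H2-O, built from H2-Oa and H2-Ob, tempers the action of H2-DM and is best known from B cells. H2-Oa (ENSMUSG00000024334, 34311314 to 34314328) had 61.0, 82.7 and 50.2 CPM in females and 58.5, 48.3 and 54.8 CPM in males. H2-Ob (ENSMUSG00000041538, 34457836 to 34473388) had 259, 318 and 208 CPM in females and 238, 204 and 227 CPM in males. Female replicate 3 was inside the male range for both. The log2 fold changes were -0.26 and -0.23, with adjusted p of 0.661 and 0.684 from edgeR.

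With the threshold for the adjusted p at 0.05, edgeR called 0 of the 10 genes, where it called 8 of all 19480 genes tested (0.0411%), 0.0154% of them lower in males and 0.0257% higher. At an unadjusted p under 0.05 the count was also 0 in edgeR, against 9.79% of all genes tested in either direction and 4.76% lower in males. In DESeq2's Wald test 3 of the 10 had an unadjusted p under 0.05, against 8.06% of all genes, and 0 were called after adjustment, where 2.08% of all genes were. When replicate numbers entered edgeR as a block, 1 had an unadjusted p under 0.05, against 14.1% of all genes, and 0 were called, where 2.2% of all genes were. The fitted log2 fold change was below 0 for all 10, as for 50.2% of all genes, with a range of -0.37 to -0.17 and a median of -0.25 beside a median of -0.0012 over all genes tested. The shared sign is not 10 separate observations, since the genes varied together between libraries. The libraries of the sexes overlapped for all 10, where they did not overlap for 14.5% of all genes. The lower bounds of the 95% intervals lay between -0.79 and -0.57, and all intervals included 0.

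**Figure D2:**
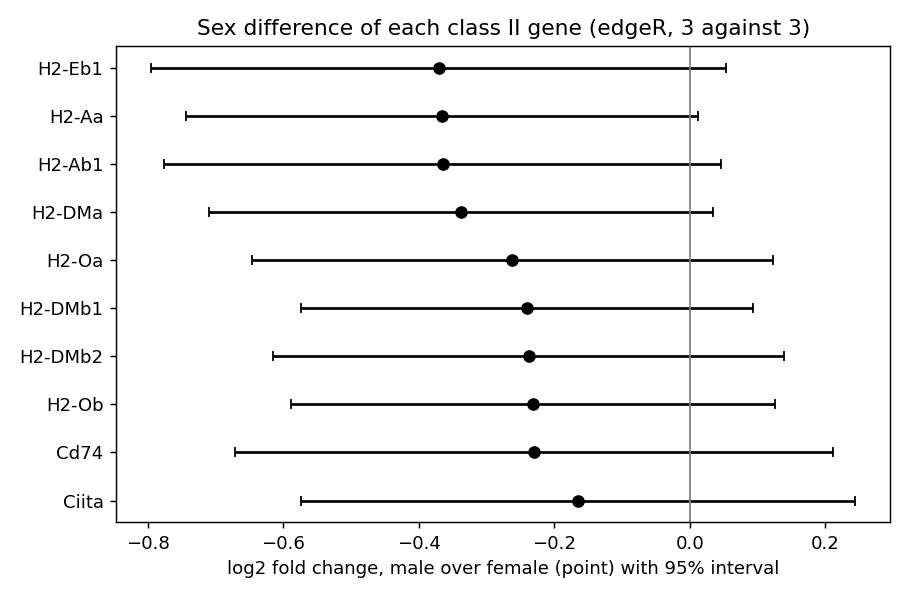
Log2 fold change of males over females (points) with 95% intervals (bars) for each class II gene from edgeR's fit of 3 against 3 libraries. All points are below 0, from -0.37 to -0.17, and all intervals include 0.

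The spread lay mainly among females. The coefficient of variation was between 19.6% and 25.6% in females for the 10 genes, and between 2.25% and 16.3% in males. Female replicate 2 was the highest library for all 10 genes and was 1.47 to 1.65 times female replicate 3. The lowest library was male replicate 2 for 6 genes and female replicate 3 for 4 genes. Without female replicate 3, the lowest female for all 10 genes, 8 of them had an unadjusted p under 0.05 in edgeR, against 6.71% of all genes in that fit, and none an adjusted p under 0.05. Their log2 fold changes were then -0.52 to -0.35. Without female replicate 2, the highest female for all 10 genes, the log2 fold changes were -0.21 to -0.05. In that fit 0 of the 10 had an unadjusted p under 0.05 in edgeR, against 7.88% of all genes.

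Levels of different genes were compared per kilobase of the canonical transcript, as mean CPM per kb over the 6 libraries. Cd74 stood at 2838, H2-Aa at 1209, H2-Ab1 at 1089, H2-Eb1 at 726, H2-DMb2 at 266, H2-DMa at 129, H2-Ob at 89.3, H2-DMb1 at 78.1, H2-Oa at 49.0 and Ciita at 10.4. This order was the same in each of the 6 libraries. Between libraries, the ranges of neighbouring genes were separate for Cd74 and H2-Aa, H2-Eb1 and H2-DMb2, H2-DMb2 and H2-DMa, and H2-Oa and Ciita, and overlapped for the other 5 neighbouring pairs. Transcript lengths are those of GENCODE M39 and may differ from the models that the reads were counted on.

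Within a library H2-Ab1 and H2-Eb1 kept nearly fixed proportions to H2-Aa. The ratio of H2-Ab1 to H2-Aa counts was 0.950, 0.999 and 0.941 in females and 0.976, 0.923 and 1.00 in males, a coefficient of variation of 3.32% over the 6 libraries. That of H2-Eb1 to H2-Aa averaged 0.899 ± 0.0437 over the 3 females and 0.900 ± 0.0408 over the 3 males (SD). The ratio of H2-Ob to H2-Oa varied by 3.51%. That of H2-DMb2 to H2-DMb1, similar beta chain genes whose separate levels are uncertain, varied by 6.27%. The ratios of H2-Oa and H2-DMb1 to H2-Aa varied by 7.95% and 9.31%. Ciita was the least fixed, its ratio to H2-Aa varying by 17.9%. Of the 12 ratios computed, 10 overlapped between the sexes. The other 2 were among the 9 ratios to H2-Aa, a share near that of all genes tested, whose ratio to H2-Aa did not overlap for 22.7%. The ratio of Cd74 to H2-Aa was 2.98, 2.91 and 2.62 in females and 3.23, 3.05 and 3.12 in males, with all males above all females (p = 0.1 in a two-sided exact permutation test, which can go no lower with 3 against 3, and 0.6 after Benjamini-Hochberg adjustment over the 12 ratios). The ratio of H2-Ob to H2-Aa was 0.175, 0.171 and 0.164 in females and 0.202, 0.181 and 0.178 in males, also with no overlap (same exact permutation test, p = 0.1, adjusted p = 0.6).

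**Figure D3:**
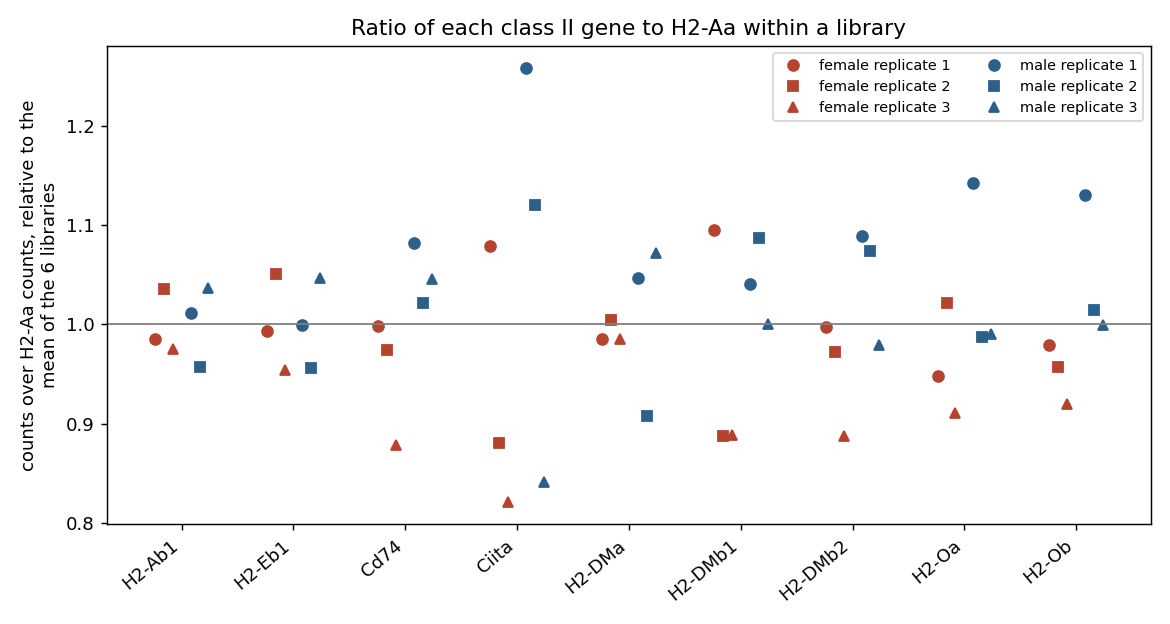
Counts of each class II gene over the H2-Aa counts of the same library, divided by the mean of this ratio over the 6 libraries, for 3 female and 3 male libraries. H2-Ab1 and H2-Eb1 stay closest to 1, Ciita spreads most, and for Cd74 and H2-Ob the males lie above the females.

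The genes also varied together over the 6 libraries. Each gene was set against the mean log2 CPM of H2-Aa, H2-Ab1, H2-Eb1 and Cd74, leaving the gene itself out of that mean. Pearson's r was 0.980 for H2-Aa, 0.993 for H2-Ab1, 0.997 for H2-Eb1 and 0.943 for Cd74. It was 0.976 for H2-DMa, 0.878 for H2-DMb1, 0.943 for H2-DMb2, 0.951 for H2-Oa, 0.960 for H2-Ob and 0.613 for Ciita. These values describe 6 points that share library depth and cell composition, and carry no test. Outside the 10 genes, Cxcr5, a chemokine receptor of B cell follicles, was the most alike, with r = 0.995, followed by Zc3h15 (0.990), Shisa5 (0.988), Pi4k2a (0.987) and Ecsit (0.987). Of the 11680 genes compared, 31 reached at least 0.95, so such values were rare but not particular to antigen presentation. Cxcr5 had 90.4, 115 and 75.1 CPM in females and 77.7, 71.8 and 80.8 CPM in males. The 12 B cell markers ran from -0.361 for Cd72 to 0.962 for Fcer2a, the low-affinity IgE receptor CD23, with 9 above 0 and 3 below. All 5 matched early B cell markers were below 0, from -0.844 for Rag2 to -0.383 for Dntt. The 11 antigen processing genes ran from -0.0024 for Sppl2a to 0.962 for Cd83, which stabilizes class II at the surface.

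Of the 10 genes, 8 lie on chromosome 17 within 249 kb of GRCm39, from H2-Oa to H2-Eb2 (34311314 to 34560386). With H2-Eb2, the 9 class II genes of this interval had log2 fold changes from -0.37 to -0.23, with a median of -0.26. The 7 other genes tested there had a median of -0.13, and 5 of them were below 0. Among these, Tap1 and Tap2, the subunits of the peptide transporter of the class I pathway, had -0.16 and -0.13, the immunoproteasome subunit Psmb8 had -0.11, and Brd2, a bromodomain gene that overlaps H2-DMa on the opposite strand in this annotation, had 0.06. The lncRNAs Gm20496 and Gm20513 had -0.99 and -0.44, further from 0 than any class II gene, at means of 1.25 and 0.749 CPM in females and 0.628 and 0.553 CPM in males. The lncRNA Gm15821 had 0.04 at 10 to 28 counts per library. In this annotation Gm20513 lies within H2-Eb1, Gm15821 lies within Tap2, and Gm20496 overlaps Psmb8 and Tap2, all on the opposite strand. Whether the counts of these lncRNAs include reads of those genes was not tested. No gene of the interval had an adjusted p under 0.05 in edgeR's test.

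**Figure D4:**
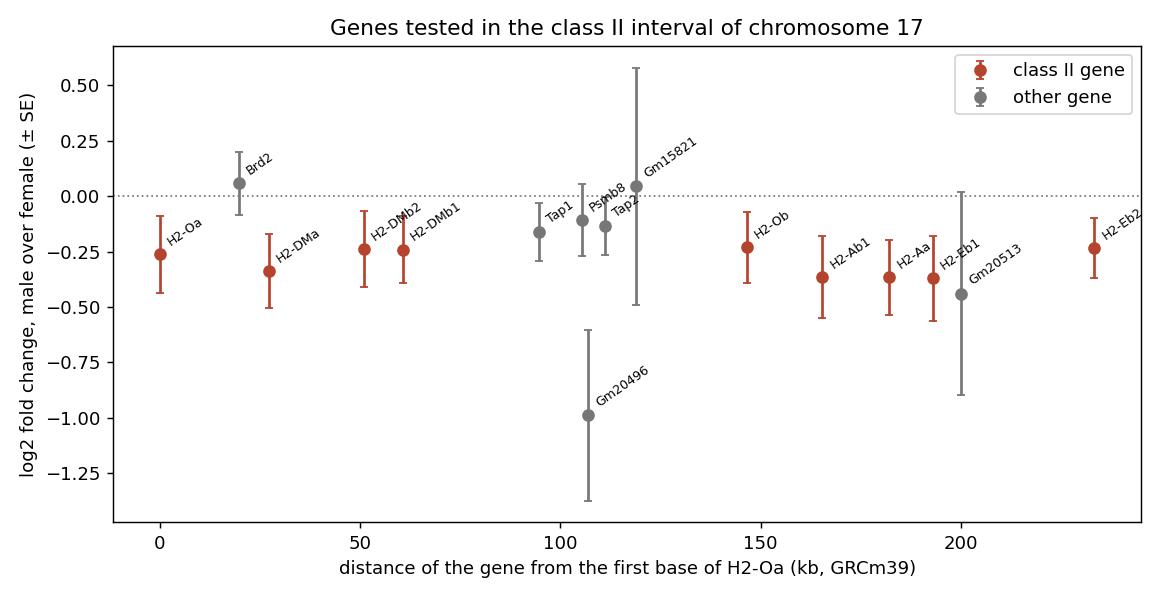
Log2 fold change of males over females (± standard error) of the genes tested in the class II interval of chromosome 17, by the distance of the gene from the first base of H2-Oa in kb. The 9 class II genes lie between -0.37 and -0.23, Brd2, Tap1, Psmb8 and Tap2 lie nearer to 0, the lncRNAs Gm20496 (-0.99) and Gm20513 (-0.44) lie further from it, and the lncRNA Gm15821 is at 0.04.

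The factors that bind the class II promoters showed no fitted shift of this kind. The 7 genes of the RFX complex, NF-Y and Creb1 had log2 fold changes of -0.10 to 0.08, 5 above and 2 below 0, with a median of 0.03. The most abundant, Creb1, averaged 85.9 ± 3.81 CPM over the 3 females and 88.4 ± 11.6 CPM over the 3 males (SD). The smallest p of the list was that of Nfyb, at a log2 fold change of 0.08 (95% interval -0.18 to 0.34, adjusted p = 0.865 from edgeR).

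Genes that process antigen for class II, such as the cathepsins, had a median of -0.21, with 10 of 11 below 0. Ctsb, the cathepsin B gene and the most abundant of them, averaged 2068 ± 27.5 CPM over the 3 females and 1588 ± 309 CPM over the 3 males (SD), without overlap (log2 fold change -0.38, adjusted p = 0.508 from edgeR). Lgmn, which encodes the asparagine endopeptidase legumain, had the smallest p, at -0.37 on the log2 scale (edgeR, adjusted p = 0.460). Ctss, the cathepsin that trims the invariant chain, had 540, 664 and 552 CPM in females and 467, 483 and 572 CPM in males. All 10 class I presentation genes tested were below 0, from -0.27 to -0.06, with a median of -0.14. H2-D1, a class I heavy chain, had -0.07 on the log2 scale (edgeR, adjusted p = 0.912) and Tapbp, which encodes tapasin, one of -0.25 (edgeR, adjusted p = 0.539). Psmb9 was not matched to a row.

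The interferon gamma axis, which can induce Ciita, had a median of -0.07, with 5 of 8 genes below 0. Ifng itself was at 0.303 to 0.710 CPM over the 6 libraries. Jak1 had -0.12 on the log2 scale (edgeR, adjusted p = 0.789), and the receptor chain Ifngr2 had the smallest p, at 0.25 (edgeR, adjusted p = 0.466). Of the 6 costimulation genes, 3 were below 0, with a median of -0.07. Icosl had -0.15 on the log2 scale (edgeR, adjusted p = 0.804), and Cd86 one of -0.47 (edgeR, adjusted p = 0.405). Over these pathway lists, 0 of the 43 genes tested had an adjusted p under 0.05 in edgeR's test, 4 had an unadjusted p under 0.05, near the 9.79% of all genes, and DESeq2's Wald test called 0, against 2.08% of all genes.

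**Figure D5:**
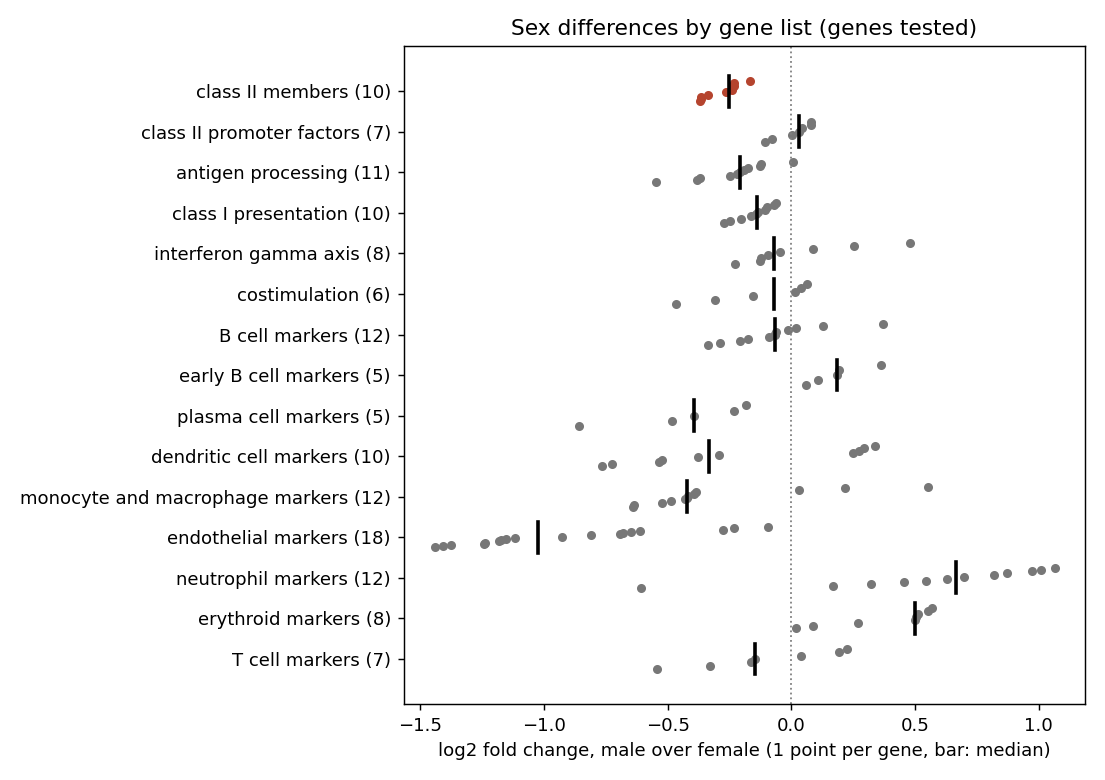
Log2 fold change of males over females for each tested gene (points) by list, with the median of each list as a black bar and the number of genes in brackets. The class II genes form a narrow group with a median of -0.25, between the B cell markers at -0.07 and the monocyte and macrophage markers at -0.42. Medians of other lists also lie in this span, such as antigen processing at -0.21 and dendritic cell markers at -0.33.

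Markers of the cells that carry class II were set beside these values. Summed over the list, the 12 B cell markers had 3642 to 4312 CPM in females and 3646 to 4254 CPM in males, with a median log2 fold change of -0.07 and 9 of 12 below 0. Cd79b, part of the B cell receptor, had a log2 fold change of -0.01, and Pax5, a B lineage factor, had 0.37 (edgeR, adjusted p = 0.430). The 12 monocyte and macrophage markers summed to 4011 to 4421 CPM in females and 2814 to 3665 CPM in males, without overlap, with a median of -0.42 and 9 of 12 below 0. The other 3 were Ly6c2, a marker of classical monocytes, at 0.55, the chemokine receptor Ccr2 at 0.22 and Vsig4 at 0.03. The complement gene C1qa had -0.42 and the mannose receptor gene Mrc1 had -0.63 (edgeR, adjusted p = 0.439 and 0.185). The 10 dendritic cell markers summed to 107 to 131 CPM in females and 103 to 115 CPM in males, with a median of -0.33 and 6 of 10 below 0. Flt3 had 0.28 and the lectin gene Clec10a -0.72 (edgeR, adjusted p = 0.684 and 0.202). None of these markers was called in edgeR's test without a block. At an unadjusted p under 0.05 the counts were 1, 10 (9 lower in males and 1 higher) and 3, beside 9.79% of all genes, and DESeq2's Wald test called 0, 2 and 1, beside 2.08%. No marker of these lists was at 0 in all libraries.

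Relative to the summed B cell markers, H2-Aa stood at 0.348, 0.431 and 0.348 in females and 0.277, 0.309 and 0.321 in males, so that all females were above all males. H2-Ab1 also did not overlap on this scale, and the other 8 genes did, where 12.0% of all genes tested did not overlap. Relative to the summed monocyte and macrophage markers, H2-Aa stood at 0.369, 0.421 and 0.310 in females and 0.382, 0.400 and 0.347 in males, and all 10 genes overlapped, where 34.1% of all genes tested did not. Cd74 averaged 1.05 ± 0.211 over the 3 females and 1.18 ± 0.0832 over the 3 males (SD) on this second scale. The female mean was the higher for all 10 genes relative to the B cell markers and the male mean for all 10 relative to the monocyte and macrophage markers. Each scale divides all 10 by the same sum, so they are not separate observations. This sum averaged 4068 CPM in females and 3952 CPM in males for the B cell markers. For the monocyte and macrophage markers it averaged 4173 and 3187 CPM. The share of all genes with the same order of means was not computed. The part of the cell types in the class II values was not tested.

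Of the other lists, the endothelial markers summed to 383 to 544 CPM in females and 231 to 344 CPM in males, with a median log2 fold change of -1.02. Stab2, a scavenger receptor of sinusoids, had -0.69 (edgeR, adjusted p = 0.175). The neutrophil markers summed to 18992 to 23244 CPM in females and 32324 to 44062 CPM in males, with a median of 0.67 and 11 of 12 above 0. S100a9 and Retnlg had 0.97 and 1.01 (edgeR, adjusted p = 0.115 and 0.0603), while Mpo had -0.61. The medians were 0.50 for erythroid markers (Hbb-bs 0.55, Hbb-bt 0.57), 0.19 for the 5 matched early B cell markers (Vpreb3 0.19), -0.39 for the 5 tested plasma cell markers (Jchain -0.86, Sdc1 -0.48) and -0.14 for T cell markers, with 4 of 7 below 0 (Cd4 -0.54). None of the genes in these 6 lists was called in edgeR's test without a block. At an unadjusted p under 0.05 the counts were 13, 9, 5, 0, 1 and 1 in this order of lists, beside 9.79% of all genes, and DESeq2's Wald test called 8, 8, 0, 0, 0 and 1, beside 2.08%.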

How the data were processed

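RNA-seq libraries of BECs at 12 weeks, 3 female and 3 male, were used. The authors deposited raw read counts per gene for each library, with no normalization or pooling. The submitters' processing notes name TopHat2 2.0.11, mm9 (NCBIM37) and featureCounts, whereas the methods name STAR and GRCm39. The highest identifier number in the table was 93789, and 47216 identifiers of GENCODE M39 (GRCm39) exceed it. Symbols, positions and lengths were taken from M39 (31073 of 37991 identifiers matched). Both sources also differ on the bones used, library kit and read length, and neither states the strand setting of the counting. The sources give 3 samples per sex without saying whether each library is 1 animal, so p-values measure the spread between these samples, which may be technical.

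Males were compared with females using edgeR 4.0.16 in R 4.3.3: default low-count filter by sex, TMM, a robust quasi-likelihood test, and p-values adjusted by Benjamini-Hochberg across the 19480 genes tested, with calls at 0.05. The standard error was taken as the size of the log2 value over the root of its F statistic. DESeq2 1.42.0, 2 other normalizations, 2 other filters, the most abundant genes left out, non-robust fits, a replicate block, a threshold of 0.01 and each library left out were alternatives. Chi-square per degree of freedom was at least 31.5 for each pair of libraries, above sampling noise. The fits were tested on simulated data. Floors cover counting error only, since PCR copies of a molecule were not marked.

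The members and lists were chosen with earlier results of these data known. Named in the text are all 10 class II genes, the most abundant gene and the gene with the smallest p of each other list, and the 5 genes most alike in pattern among those with at least 5 CPM. Ctss, Ifng, H2-Ea, Fcer2a, Cd72, Rag2, Dntt, Sppl2a, Cd83, Ctsl, Emcn, Ly6c2, Ccr2, Vsig4, Mpo and the genes of the class II interval were named outside this rule, after their values were seen. Psmb9 and Vpreb1 were not matched.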

Additional observations from a re-analysis of the deposited data

How the results depend on the processing

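None of the 10 class II genes was called at an adjusted p under 0.05 in any of the 14 other fits, nor at 0.01, and all 10 had a log2 fold change below 0 in each fit. Of the single genes, Cd74 ranged from -0.40 to -0.05 and Ciita from -0.35 to -0.05 over these fits. Their adjusted p ranged from 0.306, for H2-DMa without male replicate 3, to 1.00 (edgeR or DESeq2). The number of class II genes at an unadjusted p under 0.05 was 3 with total counts alone (8.92% of all genes), 2 with no filter on low counts (8.22%), 4 without male replicate 3 (14.2%) and 8 without female replicate 3 (6.71%). The cause was not tested. With the replicate number as a block, 1 of the 43 pathway genes was called, Ctsl (log2 fold change -0.58, adjusted p = 0.0241 from edgeR), and 0 class II genes. The correlation of the deviations from the mean of their sex across genes was 0.194, 0.0402 and 0.298 for libraries of the same number, replicates 1, 2 and 3. Pairs of different numbers ran from -0.274 to 0.131. Each female replicate correlated best with the male of its number, but male replicate 2 correlated best with female replicate 1 (0.131). Whether libraries of the same number share more than that number was not tested. The block raised the calls over all genes from 8 to 428, and those among the marker lists from 0 to 12 endothelial, 7 neutrophil, 2 monocyte and macrophage, 1 dendritic cell, 1 T cell and 1 plasma cell gene. Over the fits that each left out 1 library, 0 to 1 pathway genes were called, the 1 being Cd86 without male replicate 3 (log2 fold change -0.72, adjusted p = 0.0455 from edgeR). DESeq2's Wald test called 359 of all genes, no filter 98, total counts alone 14 and the fit without male replicate 3 96, against 8. Each class II gene had at least 2355 counts per library, and there were 3 libraries per sex.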
